A study of Chlorocebus aethiops with 12 samples.

Results

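Transcript levels were compared between COS-1 cells carrying the Y30E receptor and COS-1 cells carrying the Y30F receptor, both under dexamethasone, on 6 of the 12 arrays of the series. COS-1 is an African green monkey kidney line of fibroblast-like shape. All groups were transiently transfected with mouse CCRP (tagged with V5) and with human glucocorticoid receptor (tagged with FLAG), so both constructs are shared by every array. Y30F-DEX (3 arrays) had phenylalanine and Y30E-DEX (3 arrays) had glutamate in place of the receptor's tyrosine 30, and both received 100 nM dexamethasone for 6 h, starting 40 h after transfection. Y30F-DMSO and Y30E-DMSO (3 arrays each) received 0.1% DMSO, the vehicle, in place of the hormone. Transfection was transient, so a well holds cells with and without the constructs, and the labels do not say whether the 3 replicates of a group were separate cultures. The p-values below therefore rest on array-to-array spread alone, part or all of which may be technical.

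The glucocorticoid receptor is a transcription factor that waits in the cytoplasm in a complex with heat shock proteins and co-chaperones. A bound glucocorticoid such as dexamethasone sends it to the nucleus, where it raises or lowers the transcription of many genes. CCRP is a co-chaperone that binds nuclear receptors in the cytoplasm. Phenylalanine resembles tyrosine but cannot be phosphorylated, and glutamate brings the negative charge that a phosphate group would also bring. The title of the series contrasts interacting with non-interacting receptor, meaning contact between its N- and C-terminal ends, without assigning either state to Y30F or Y30E.

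Human probes were hybridised with RNA of monkey cells, so comparisons were made across arrays for a given probe, never across probes. Signal well above background on each of the 6 dexamethasone arrays was required, which held for 24060 of 41000 probes. These 24060 probes stood for 18811 transcript records, and 18850 of them (78.3%) stood for annotated protein-coding RefSeq records, whose IDs begin with NM. The files pair no record with a gene symbol, so a record is named here by its RefSeq ID, with no statement of its function, and 0 of the 453 genes of the 19 prepared gene lists could be looked up. For the same reason neither the transfected receptor nor the markers of the cell line were checked. On the 6 arrays 61.8% to 66.6% of spots were well above background, and 0 of these spots were saturated on any array. Signals are given as scaled signal, which is the probe's processed signal after every array was brought to the same 75th percentile (809 on this scale). The dimmest spots well above background lay between 17.3 and 23.4 on this scale, depending on the array. A transcript difference in such bulk RNA cannot tell fewer expressing cells from less RNA per cell.

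No probe passed the test of the receptors under dexamethasone, and most probes had intervals that exclude a 1.5-fold difference. Of 24060 probes 0 (0%) passed the limma test at an adjusted p of 0.05, and the smallest adjusted p was 0.0992. The count was not stable: it was 16 (0.0665%) with slide as a block, 7076 with array weights, 46 when Y30F-DEX replicate 1 was left out and 32 when the third Y30E-DMSO array was. At an unadjusted p of 0.05 there were 3209 probes (13.3%), 1740 higher and 1469 lower in Y30E-DEX. The median size of the difference was 0.08 on the log2 scale, a 1.06-fold difference, and the median difference was -0.01. The 95% interval of the difference lay within 1.5-fold either way for 21509 probes (89.4%) and within 2-fold for 23368 (97.1%). A difference of more than 2-fold was seen for 35 probes (0.145%), 11 higher (0.0457%) and 24 lower (0.0998%) in Y30E-DEX. These intervals carry no term for slides. With slide as a term the interval lay within 1.5-fold for 18033 probes and within 2-fold for 22639 (94.1%).

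The bound on the difference depended on how bright the probe was. Probes were split by mean scaled signal into 3 sets of 8020. In the brightest set, from 1258 upward, the interval lay within 1.5-fold for 8002 (99.8%), and 0 differed by 1.5-fold or more. In the middle set it did so for 7834 of 8020 (97.7%). In the dimmest set, at most 188, it did so for 5673 of 8020 (70.7%). All 35 differences over 2-fold were in that dimmest set. The share of probes whose 3 Y30E-DEX arrays did not overlap the 3 Y30F-DEX arrays was 19.6% in the dim set, 22.7% in the middle and 19.2% in the bright set. Overall it was 20.5%, made up of 2455 probes above (10.2%) and 2468 below (10.3%) in Y30E-DEX. Probes printed in 10 spots per array are averaged over more spots: 218 of them were tested, their spots differed within an array by a median SD of 0.05 to 0.09 (log2), and their largest difference between the receptors was 0.39 (log2). Of these 218 probes 215 had an interval within 1.5-fold.

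The arrays were printed 4 to a slide, and no slide held both dexamethasone groups. The 3 Y30E-DEX arrays were on slide 3. Those of Y30F-DEX were divided, with replicate 1 on slide 1 and the others on slide 2. No within-slide value of the receptor difference exists, and slide and receptor cannot be told apart from these 6 arrays alone. The shift within Y30F-DEX between slides 1 and 2 gives the size of a difference between those slides without a difference in receptor. Replicate 1 differed from the mean of replicates 2 and 3 by more than 2-fold for 383 probes (1.59%), 365 of them lower and 18 higher on slide 1. That is more probes than the 35 that differed by 2-fold between the receptors, although the shift rests on 1 array against 2 and the difference on 3 against 3. The median size was 0.09 (log2) for the shift and 0.08 for the difference. Slide 3, which holds all Y30E-DEX arrays, is not part of that shift. Within Y30E-DMSO, replicate 3 (slide 3) and the mean of replicates 1 and 2 (slide 2) were over 2-fold apart for 271 probes. Of these 215 were lower and 56 higher on slide 3.

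Single pairs of arrays have equal averaging, and with them the contrast between slide shift and receptor difference was smaller. Differences within Y30E-DEX had an SD over probes of 0.18 to 0.22 (log2, 3 pairs on slide 3), with 92 to 122 probes over 2-fold apart. Y30F-DEX replicates 2 and 3, on slide 2, differed with an SD of 0.19 and had 98 such probes. Y30F-DEX replicate 1 differed from its replicates on slide 2 with an SD of 0.26 to 0.31 (2 pairs) and had 362 to 508 such probes. Between the receptors, the Y30E-DEX arrays differed from Y30F-DEX replicate 1 with an SD of 0.22 to 0.24 (3 pairs) and had 106 to 125 such probes. From Y30F-DEX replicates 2 and 3 they differed with an SD of 0.25 to 0.29 (6 pairs) and had 259 to 347. By SD and by this count, which the widest differences dominate, Y30F-DEX replicate 1 lay nearer to the Y30E-DEX arrays than to the other Y30F-DEX arrays. By the median size of the difference it did not. That was 0.08 (log2) against Y30F-DEX replicate 3 and 0.13 against replicate 2, and between 0.10 and 0.13 against the Y30E-DEX arrays.

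**Figure D1:**
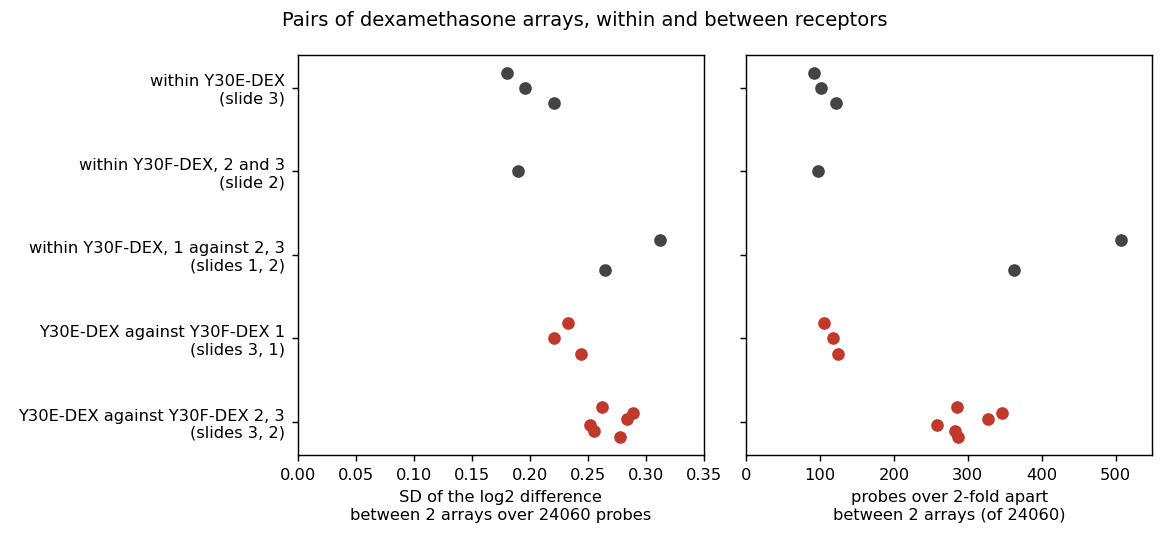
Each point is 1 pair of dexamethasone arrays; the left panel gives the SD of their log2 difference over 24060 probes and the right panel the number of probes over 2-fold apart, with pairs within a receptor in grey and pairs between receptors in red. Pairs of Y30E-DEX with Y30F-DEX replicate 1 (106 to 125 probes) lie near the pairs within a slide, and pairs that include slide 2 and another slide lie higher (259 to 508 probes).

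The slide shift ran together with the receptor difference for some probes. Of the 365 probes more than 2-fold lower on Y30F-DEX replicate 1 than on replicates 2 and 3, 347 (95.1%) were lower in Y30E-DEX, against 52.5% of all probes, with a median difference of -0.49 (log2). Set against replicate 1 alone the same probes had a median difference of 0.38, and against replicates 2 and 3 alone of -0.92, an opposition that the choice of these probes favours. Of the 24 probes more than 2-fold lower in Y30E-DEX, 19 were among these 365. The shift and the difference are both computed from the Y30F-DEX arrays. Neither this count nor the 95.1% is therefore independent of how the probes were chosen. Of the 11 more than 2-fold higher in Y30E-DEX, 0 had a slide shift of that size. Counting against both parts of Y30F-DEX separately, 188 probes were over 2-fold from replicates 2 and 3 (20 higher and 168 lower in Y30E-DEX), 48 from replicate 1 (30 higher and 18 lower), and 5 from both in the same direction (4 higher and 1 lower).

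**Figure D2:**
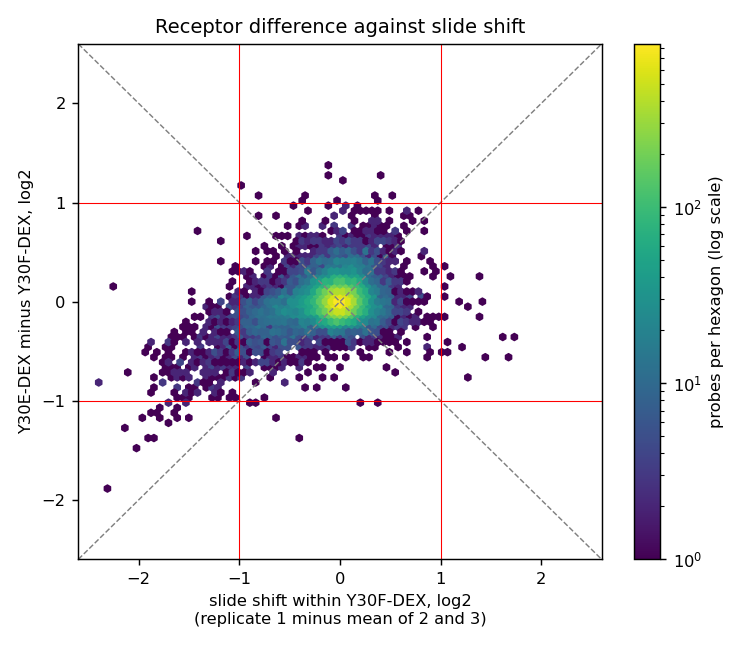
Density of 24060 probes, with the slide shift within Y30F-DEX (replicate 1 minus the mean of replicates 2 and 3, log2) on the x axis and Y30E-DEX minus Y30F-DEX (log2) on the y axis; red lines mark 2-fold and dashed lines mark equal size. The spread along x (383 probes past 2-fold) is wider than along y (35 probes). The x values rest on 1 array against 2 and the y values on 3 against 3, and both use the Y30F-DEX arrays. The tail at lower left holds probes low on slide 1 that were also lower in Y30E-DEX.

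A further count asked for 3 and 3 arrays that do not overlap and a difference larger than the slide shift within Y30F-DEX. This held for 4634 probes (19.3%), 2333 higher (9.7%) and 2301 lower (9.56%) in Y30E-DEX. The shift condition removed few of the 4923 probes without overlap, and that shift does not involve slide 3. With arrays centred on their median both conditions held for 2359. A fit with slide as a term gave the same sign for 3758 of the 4634 (81.1%), against 65.7% of all probes. That fit shares dexamethasone arrays with the difference itself. It gives Y30F-DEX replicate 1 no weight and depends on 1 vehicle array, Y30E-DMSO replicate 3, to link slide 3 to slide 2. Within those 3758 the median size was 0.17 (log2), 1.13-fold, and 100 probes were at least 1.5-fold higher and 31 at least 1.5-fold lower. Other probes for the same records had a difference of the same sign in 1523 of 2197 cases (69.3%), against 59.8% for probe pairs of a record at large. They read the same RNA on the same arrays, so this share cannot tell receptor from slide. The choice of probes with clear differences also favours a higher share.

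From the protein-coding RefSeq records in this set, the pair with the smallest p in each direction is described next, although none passed the adjusted threshold. They were chosen by their difference on the dexamethasone arrays, which also enter their hormone effects. Hormone effects that differ between the receptors are thus favoured by the choice. NM_000771 had scaled signals of 64.0, 57.6 and 62.3 on the Y30F-DEX arrays and of 92.9, 91.2 and 105.6 on the Y30E-DEX arrays. Every Y30E-DEX array was above every Y30F-DEX array, by 1.57-fold on average (0.65 ± 0.08, log2, SE, n = 3 against 3, limma adjusted p = 0.0992). Its slide shift within Y30F-DEX was 0.10 (log2), and within Y30E-DMSO it was -0.18 (slide 3 minus slide 2). With slide as a block the difference was 0.87 (limma adjusted p = 0.142). Under DMSO the means were closer, 62.5 with Y30F and 71.6 with Y30E, a difference of 0.20 ± 0.08 (log2, SE). All Y30F-DMSO arrays were on slide 1 and the Y30E-DMSO arrays on slides 2 and 3, so no slide holds both vehicle groups either. With slide as a block, which links the vehicle groups through the Y30F-DEX arrays, the vehicle difference of NM_000771 was 0.35. Dexamethasone raised NM_000771 with the Y30E receptor by 0.43 (limma adjusted p = 0.0221, and 0.0624 with slide as a block), and with Y30F its change was -0.03 (adjusted p = 0.926). The difference between these hormone effects did not pass (limma adjusted p = 0.358).

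NM_130459 had scaled signals of 77.4, 80.2 and 78.3 on the Y30F-DEX arrays and of 107.7, 105.6 and 125.0 on the Y30E-DEX arrays. The groups did not overlap, and the difference was 0.52 ± 0.07 (log2, SE, limma adjusted p = 0.107), or 0.47 with slide as a block (adjusted p = 0.884). The vehicle arrays, on other slides for each receptor, also stood apart: the DMSO means were 67.3 with Y30F and 98.4 with Y30E, a difference of 0.55 ± 0.07 (log2, SE, limma adjusted p = 0.109), or 0.50 with slide as a block (adjusted p = 0.501). The record's other tested probe, which is brighter, differed by 0.03 (log2, limma adjusted p = 0.929) and its arrays overlapped.

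NM_138969 was lower in Y30E-DEX, with scaled signals of 157.8, 183.4 and 165.8 on the Y30F-DEX arrays and of 113.2, 117.9 and 109.7 on the Y30E-DEX arrays. The difference was -0.57 ± 0.08 (log2, SE, limma adjusted p = 0.108), with a slide shift of -0.14, and it was -0.73 with slide as a block (adjusted p = 0.303). Under DMSO the order was the opposite, with means of 124.2 for Y30F and 156.2 for Y30E, a difference of 0.33 (log2) and of 0.15 with slide as a block (limma adjusted p = 0.191 and 0.861). Dexamethasone raised NM_138969 with Y30F by 0.44 (limma adjusted p = 0.0193) and lowered it with Y30E, by -0.46 (adjusted p = 0.0153). With slide as a block the 2 effects were 0.35 and -0.53 and neither passed (adjusted p = 0.294 and 0.0873). The difference of the effects was -0.90 ± 0.12 (log2, SE) and missed the threshold (limma adjusted p = 0.0866).

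NM_006626 had scaled signals of 42.1, 49.6 and 42.1 on the Y30F-DEX arrays and of 29.5, 32.0 and 34.6 on the Y30E-DEX arrays. Its difference was -0.48 ± 0.08 (log2, SE, limma adjusted p = 0.127) and -0.47 with slide as a block (adjusted p = 0.938). Under DMSO the means were 45.8 with Y30F and 34.9 with Y30E, a difference of -0.39 (log2) and of -0.49 with slide as a block (limma adjusted p = 0.145 and 0.538). All 4 records were in the dimmest set of probes. With normexp background correction in place of the scanner software's, their differences shrank to 0.36 for NM_000771, 0.23 for NM_130459, -0.35 for NM_138969 and -0.12 for NM_006626 (log2, limma adjusted p from 0.207 to 0.553).

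**Figure D3:**
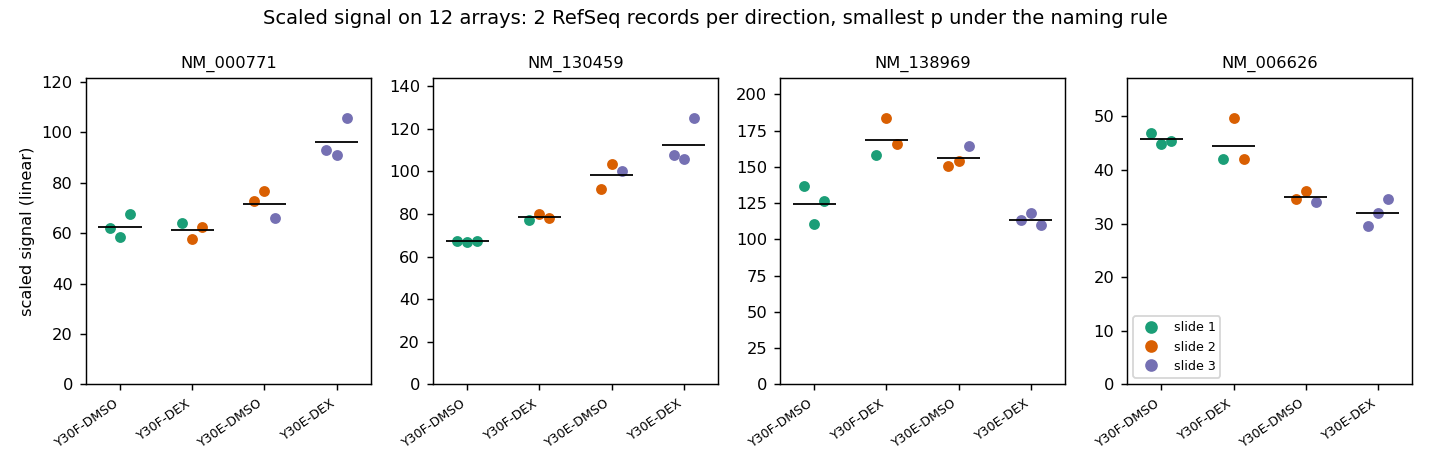
Scaled signal (linear, from 0) on all 12 arrays for NM_000771, NM_130459, NM_138969 and NM_006626; points are arrays coloured by slide and lines are group means (geometric). For each record the Y30E-DEX points lie entirely above or entirely below the Y30F-DEX points, and all Y30E-DEX points come from slide 3.

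Records that dexamethasone changed with both receptors were then compared for their level under hormone. There were 235 induced probes (0.977% of those tested) and 67 repressed ones (0.278%), each past an adjusted p of 0.05 in both limma comparisons with DMSO. They were chosen on these same arrays, so what follows is a description. Under dexamethasone the induced probes had a median difference between the receptors of 0.02 (log2, range -0.47 to 0.33), and the repressed ones of -0.03 (range -0.35 to 0.25). With slide as a block the median of the induced probes turned to -0.03 (132 of 235 lower in Y30E-DEX, against 139 of 235 higher without it), and that of the repressed ones was -0.03. None of the 302 differed by 1.5-fold or more. The interval lay within 1.5-fold for 230 of 235 induced probes (97.9%) and for 67 of 67 repressed ones, against 89.4% of all probes. The arrays did not overlap for 59 induced probes (25.1%) and for 28 repressed ones (41.8%, 7 above and 21 below in Y30E-DEX), against 20.5% of all probes. An unadjusted p under 0.05 was reached by 28 induced (11.9%) and 22 repressed probes (32.8%), against 13.3% of all probes, and the smallest limma adjusted p was 0.216 and 0.218. Passing both hormone tests favours probes with a small standard error. Its median was 0.071 (log2) for induced, 0.070 for repressed and 0.079 for all probes. The shares set against all probes here are therefore partly shaped by that choice.

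NM_016084, the induced record with the largest hormone effect, was 3.82 (log2) higher with Y30F and 3.97 with Y30E by its brighter probe. That probe read 371, 438 and 445 on the Y30F-DMSO arrays and 398, 455 and 391 on the Y30E-DMSO arrays. Under dexamethasone it read 5575, 5994 and 6111 with Y30F and 6106, 7051 and 6341 with Y30E. The dexamethasone arrays of the receptors overlapped, and the difference was 0.14 ± 0.09 (log2, SE, 95% interval -0.06 to 0.34, limma adjusted p = 0.529). Its dimmer probe read 241, 250 and 236 with Y30F and 250.0, 259 and 270.2 with Y30E, a difference of 0.10 ± 0.10 (log2, SE, limma adjusted p = 0.701), and those arrays just missed overlapping.

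Among repressed records, NM_003897 read 5191, 5183 and 4795 on the Y30F-DEX arrays and 4806, 4623 and 4818 on the Y30E-DEX arrays. The groups overlapped, with a difference of -0.09 ± 0.05 (log2, SE, limma adjusted p = 0.474). NM_018933 fell further with the hormone, from a DMSO mean of 4202 to readings of 926, 1364 and 969 with Y30F, and from 4265 to 1291, 1205 and 1234 with Y30E. The Y30E-DEX arrays lay within the range of the Y30F-DEX arrays, and the difference was 0.22 ± 0.15 (log2, SE, limma adjusted p = 0.554).

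**Figure D4:**
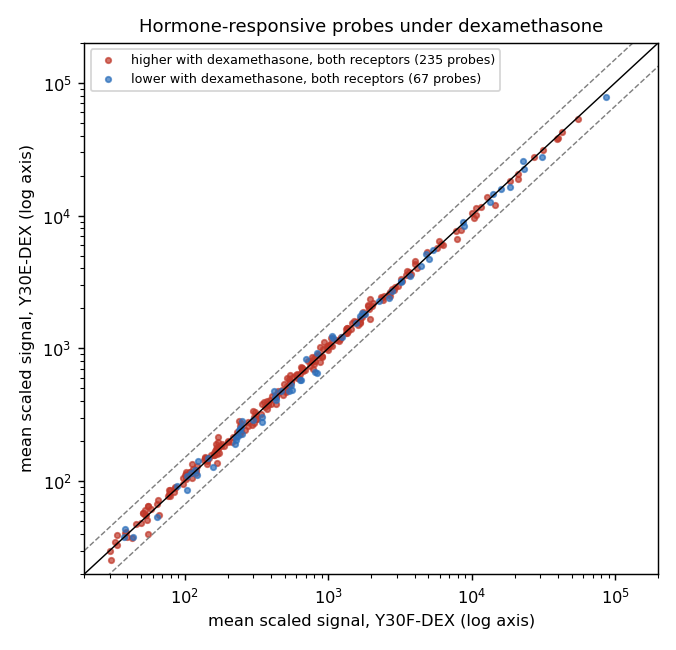
Mean scaled signal in Y30F-DEX (x) and in Y30E-DEX (y), both on log axes, for 235 probes higher and 67 probes lower with dexamethasone under both receptors. The solid line marks equality and the dashed lines mark 1.5-fold, and all 302 points lie between the dashed lines.

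A fit with slide as a block can compare the receptors through the Y30E-DMSO arrays, which were on slides 2 and 3. Its estimate gives Y30F-DEX replicate 1 no weight, and 1 array, Y30E-DMSO replicate 3, links slide 3 to slide 2. This fit called 16 probes (0.0665%), 1 higher and 15 lower in Y30E-DEX, at a limma adjusted p under 0.05, and 1009 (4.19%) at an unadjusted p under 0.05. The median standard error rose to 0.14 from 0.08 (log2). All 15 lower calls had 1 array in common. In each of them Y30E-DMSO replicate 3, the only vehicle array on slide 3, read higher than all of the other 11 arrays, by 0.66 to 2.02 (log2, median 1.22). Without the slide term the differences of these 15 probes lay between -0.22 and 0.48 (log2).

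NM_153712 has the smallest p of these. It read 132, 137 and 131 on the Y30F-DEX arrays, 128, 119 and 130.3 on the Y30E-DEX arrays, 121 and 129 on Y30E-DMSO replicates 1 and 2, and 343 on replicate 3. The Y30E-DEX arrays lay just below the Y30F-DEX arrays. The difference was -0.08 (log2) without the slide term (limma adjusted p = 0.933) and -1.55 with it (adjusted p = 0.00301). Its 2 other tested probes differed by -0.07 and -0.20. NM_022042 followed the same pattern, at 191.7 on Y30E-DMSO replicate 3 and between 29.6 and 48.7 on the other 11 arrays. In the 1 higher call, NM_138964, Y30E-DMSO replicate 3 was not the highest array. Its difference from the mean of replicates 1 and 2 was -0.43 (log2), and the blocked estimate runs through that array here too. NM_138964 read 127, 118 and 118 on the Y30F-DEX arrays and 155, 163 and 177 on the Y30E-DEX arrays, which did not overlap. The difference was 0.44 ± 0.11 (log2, SE, limma adjusted p = 0.224) and 0.90 with slide as a block (adjusted p = 0.0408). With DMSO it read 201, 214 and 154 with Y30E and 107, 108 and 114 with Y30F, which also did not overlap but again came from different slides. That vehicle difference was 0.78 (log2, limma adjusted p = 0.119) and 1.02 with slide as a block (adjusted p = 0.218).

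**Figure D5:**
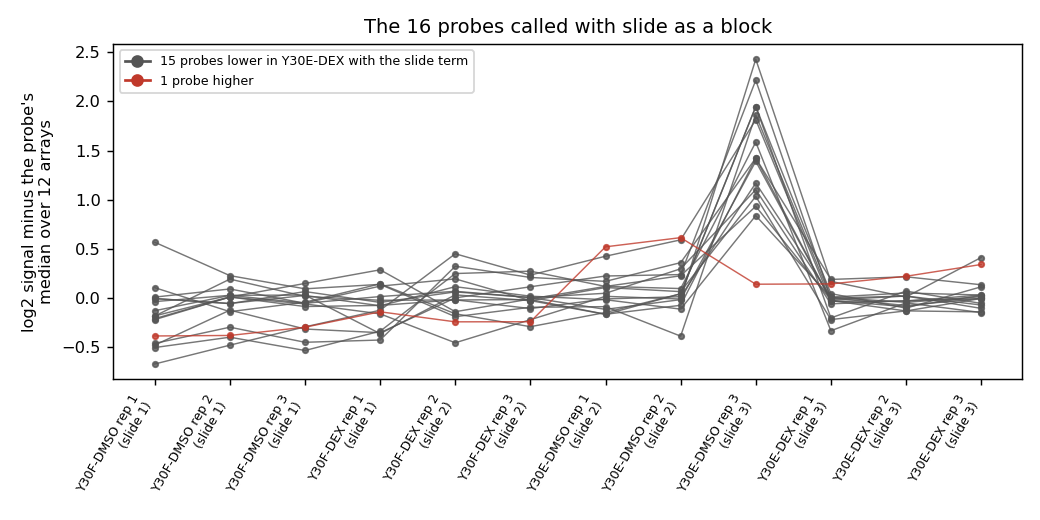
The log2 signal of the 16 probes called with slide as a block, minus each probe's median over the 12 arrays, by array (x). The 15 grey lines, called lower, peak on Y30E-DMSO replicate 3, at 0.66 to 2.02 over the next array, and the red line is NM_138964.

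Probes outside the tested set were counted by detection alone. Of the 41000 probes 11917 were well above background on none of the 6 dexamethasone arrays, and 5023 on some of them. On all 3 Y30E-DEX arrays and no Y30F-DEX array there were 97, and 23 had the opposite pattern. Within Y30F-DEX, 299 probes were well above background on replicate 1 alone and 1435 on replicates 2 and 3 alone (the 2 kinds of count need different numbers of arrays and cannot be set against each other). Only a lower bound of the fold can be given for one-sided probes, set against the lowest signal well above background on the dim arrays or the probe's own signal, whichever was higher. The bound was 1.5-fold or more for 33 of the 97 and for 11 of the 23, and 2-fold or more for 5 of each. The largest bounds were 3.02-fold and 3.12-fold. These probes were chosen for being well above background in 1 group only, so a brighter signal there follows from the choice. The bounds have no interval, and all Y30E-DEX arrays were on slide 3, so the counts are a description only.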

How the data were processed

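Cy3-labelled cRNA from total RNA of each sample was put on its own 1-colour Agilent human array, per the labels' protocols. The deposited intensity per spot is the scanner software's processed signal, from which background and spatial trend had been removed array by array, per the file headers. The software was Agilent Feature Extraction 12, per the submitters' processing notes. Deposited spot flags, and for the normexp alternative the median signal and background intensity, were used as well. The series table differed from the scanner files in 0 spots.

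The log2 signal was reduced by the array's 75th percentile over 43376 non-control spots, outlier spots (89 to 154 per array) were left out, and repeat spots were averaged per probe. A probe with several spots counted as well above background where at least 0.5 of them were. All 12 arrays entered a model of 4 group means, fitted with limma 3.58.1 under R 4.3.3 and moderated by eBayes. It had 8 residual degrees of freedom. A check on simulated data drew independent noise for every array without a slide effect, so it cannot speak to slides. Adjusted p-values are Benjamini-Hochberg values across the 24060 probes. Slides were read from the file headers. The random slide block also used statmod 1.5.0. Blocked and other alternatives are listed in the closing section.

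The comparison, the lists and the rule for named records were chosen with earlier results of these data known. The rule asked for genes with a name. Its order (no overlap, larger than the slide shift, same sign with the slide block, smallest p) was applied to RefSeq protein-coding IDs, with 2 named per direction, and 3 of the 16 records called with the slide block. Hormone-responsive records were ordered by the larger of their p-values with the 2 receptors.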

Additional observations from a re-analysis of the deposited data

How the results depend on the processing

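The count of probes that differed was 0 with quantile normalization, median centring, normexp (offset 50), the series table, a filter on all 12 arrays, 1 probe per record, slide as a random block, the 6 arrays alone and the trend and robust prior, with 2182 to 3312 probes at an unadjusted limma p under 0.05. The random slide block had a correlation of 0.000247 within slides, so it all but repeats the main fit and is no check on slides. Several settings gave another count. A looser filter (all 3 arrays of at least 1 group) gave 1, Y30F-DEX replicate 1 as the only array of its group gave 1, an adjusted p of 0.1 gave 2, and slide as a fixed block gave 16. Array weights gave 7076 (3516 higher, 3560 lower), with weights from 0.41 to 7.24, the highest for Y30F-DEX replicate 3. Leaving out 1 array gave 0 to 46. It was 46 (13 higher, 33 lower) without Y30F-DEX replicate 1, which leaves the receptors on slides 2 and 3 alone, 32 without Y30E-DMSO replicate 3, 2 without Y30E-DEX replicate 2 and 1 without Y30E-DEX replicate 3. None of the 46 was among the 16 of the slide block. The cause was not tested. With the replicate block the count was also 0. Same-numbered arrays of the 2 groups deviated from their group means with correlations of -0.12, -0.20 and -0.10. Arrays of different number gave 0.005 to 0.14. These values cannot tell whether arrays of a number were handled together.

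With slide as a block, leaving out 1 array gave 9 to 31 probes, 9 without Y30F-DEX replicate 2 and 31 without replicate 3. Without Y30E-DMSO replicate 3 that fit could not be made, because slide and group then coincide. The count of probes without overlap and with a difference larger than the slide shift was 2359 with median centring and 3769 to 4560 with the other 3 settings tried. NM_022042 turned from 0.06 to -2.06 with slide as a block. The slide block of the vehicle difference was chosen after seeing the data, and it turned NM_153712 from 0.404 to -0.104. NM_000771, NM_130459, NM_138969 and NM_006626 were tried under 19 settings. Of these 8 return the same estimate by construction, and the sign was kept in the other 11. The choice of these records (no overlap, same sign with the slide block) fixed that sign where a dexamethasone array was left out. It also fixed the sign with slide as a fixed block, and the random block all but repeats the main fit. Only the normalization and background settings could have turned the sign. Normexp shrank NM_000771 from 0.65 to 0.36, NM_130459 from 0.52 to 0.23, NM_138969 from -0.57 to -0.35 and NM_006626 from -0.48 to -0.12. The first 3 passed when either Y30F-DEX replicate 1 or the slide 3 vehicle array was left out (limma adjusted p from 0.0305 to 0.0481). Signal near background limits the dimmest probes most.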
